A study of Mus musculus with 6 samples.

Results

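BCL2 family genes were followed in stimulated mouse cells labelled CD4 T cells, WT or with a knockout of AMP-activated protein kinase (AMPK KO). The knockout was aimed at Prkaa1, which encodes a catalytic subunit of AMPK. The 10 members were taken by symbol from the 23282 lines of each library: 5 pro-survival genes (Bcl2, Bcl2l1, Mcl1, Bcl2a1b and Bcl2a1d) and 5 pro-death genes (Bax, Bak1, Bcl2l11, Bbc3 and Pmaip1). All 10 were listed in every library and all 10 passed the filter on low values. The CD4 T cells came from spleen and lymph nodes of C57BL/6 mice, rested for 1 h and were then stimulated with antibodies to CD3 and CD28. Per the methods, CD4 T cells were isolated with magnetic beads or a cell sorter. The stimulation lasted 24 h per the sample labels, and the methods of the study give a shorter time. WT cells came from mice that carry floxed Prkaa1 alleles without Cre (Prkaa1 fl/fl, CD4Cre-negative), and AMPK KO cells from mice that carry the same floxed alleles with CD4Cre. Both groups therefore share the floxed alleles, and CD4Cre acts in every cell that has passed through a CD4-expressing stage, CD8 T cells included. The mice were female and 6 to 8 weeks old per the methods. There were 3 libraries per group, described as independent biological samples, and nothing given here ties a library to 1 animal or to a pool.

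The BCL2 family decides whether a cell opens the outer membrane of its mitochondria, the step that releases cytochrome c and starts the caspases. Bax and Bak1 form the pores. Bcl2, Bcl-xL (encoded by Bcl2l1), Mcl1 and A1 (encoded by the Bcl2a1 genes) hold the pore formers and their activators in check, and BH3-only proteins such as Bim (Bcl2l11), Puma (Bbc3) and Noxa (Pmaip1) bind into the groove of these guardians and release the block. T cells are a textbook case of this balance. Resting T cells rely on Bcl2 kept up by interleukin 7, activated T cells draw on Mcl1, Bcl-xL and A1, and Bim removes T cells when the response ends. The comparison asks how the transcripts of both sides stood in AMPK KO against WT cells.

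The reads on listed genes numbered 9575096 to 10168121 per WT library and 10515155 to 11185360 per AMPK KO library. The ribosomal transcript Rn45s took 20.7 to 24.9% of them in WT and 8.48 to 10.8% in AMPK KO libraries. Prkaa1, the targeted gene, stood at deposited log2(CPM + 1) levels of 4.64, 5.24 and 4.86 in WT and 4.08, 4.72 and 4.67 in AMPK KO libraries, a difference of -0.43 ± 0.25 (SE, n = 3 per group, limma adjusted p = 0.357), and the groups overlapped. The difference was -0.22 without AMPK KO 1 and -0.26 without WT 2. The reads lie near the 3′ end of transcripts, so a transcript that lacks a floxed exon can still be counted, and the level of Prkaa1 does not check the labels. Xist read 0.93 to 2.16 in WT and 7.55 to 7.92 in AMPK KO libraries, and the Y-linked Ddx3y 8.44 to 8.53 and 6.93 to 7.28. Ddx3y in all 6 libraries goes against the female mice of the methods, and sex-linked RNA and genotype cannot be told apart here. WT 1 and WT 3 with AMPK KO 2 stood apart from the other 3 libraries in earlier results of these data, and this division was tried as a term in the fit. Among T cell markers 3 of 12 tested fell, and the summed level of the list was 3247 to 3465 CPM (reads scaled to a common library size) in WT and 2521 to 2974 in AMPK KO libraries. Among macrophage and monocyte markers 6 of 12 rose, with a sum of 420 to 467 CPM in WT and 736 to 1364 in AMPK KO libraries. Cd4 read 6.531 to 6.829 in WT and 6.144 to 6.547 in AMPK KO libraries. Cd8a read 6.479 to 6.863 and 6.953 to 7.081, and Cd8b1 7.165 to 7.608 and 7.585 to 7.984. Cd8b1 stood above Cd4 in every library, and the share of CD4 T cells was not tested.

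Levels throughout are these log2(CPM + 1) values, differences are AMPK KO minus WT on that scale, and a gene was called changed at a Benjamini-Hochberg adjusted p below 0.05 in limma's moderated test over 11279 genes. By this rule 4 of the 10 members were called, and 5.65% of all genes tested. The A1 genes Bcl2a1b and Bcl2a1d and the Noxa gene Pmaip1 rose, against 2.54% of all genes called higher, and Bcl2 fell, against 3.1% called lower. Bcl2a1b and Bcl2a1d are near-identical copies whose reads may be shared, so their calls are not independent. The 3 libraries of one group did not overlap those of the other for 7 of the 10 members and for 25.6% of all genes. Neither side moved as a block. Of the pro-survival genes 2 rose, 1 fell and 2 were not called, and of the pro-death genes 1 rose and 4 were not called. In bulk RNA, fewer cells of a type and less RNA per cell cannot be told apart.

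**Figure D1:**
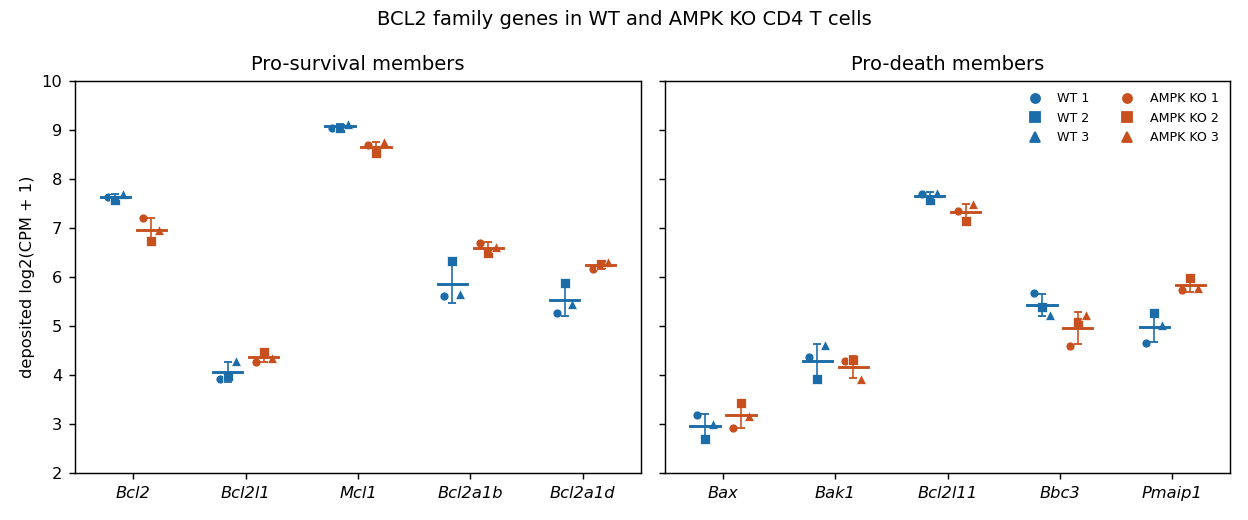
Deposited log2(CPM + 1) level of each member in each library, with pro-survival genes on the left and pro-death genes on the right. Symbols mark the replicate, horizontal lines the group mean and bars 1 SD. Bcl2, Mcl1, Bcl2l11 and Bbc3 lie lower in all 3 AMPK KO libraries than in any WT library. Bcl2a1b, Bcl2a1d and Pmaip1 lie higher in all 3 than in any WT library.

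Bcl2, the founding survival protein of the family, read 7.64, 7.58 and 7.70 in WT and 7.20, 6.74 and 6.96 in AMPK KO libraries. Every AMPK KO library lay below every WT library, AMPK KO 2 lowest. Bcl2 fell by 0.67 ± 0.15 (SE, n = 3 per group, limma adjusted p = 0.0206), to 62.7% of the WT level on this scale, with a 95% interval from -1.0 to -0.35. The exact two-sided permutation test of 3 against 3 libraries gave p = 0.1, the smallest it can give. Between 1135 and 1900 reads per library stood behind these values. The call was lost without WT 1 (limma adjusted p = 0.107) and without WT 3 (limma adjusted p = 0.125), with differences of -0.67 and -0.64. Genes called over all tested fell from 637 to 127 and 133 in these fits. In limma voom on the reads recovered from the values Bcl2 stayed called with the deposited scaling (-0.67, adjusted p = 0.0251). With each library scaled to its total reads, which moved the median of all genes by 0.15, it stood at -0.53 with an adjusted p of 0.0712.

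Mcl1, a short-lived guardian that T cells need at all stages, read 9.05, 9.05 and 9.12 in WT and 8.69, 8.53 and 8.75 in AMPK KO libraries. The groups did not overlap, yet the difference of -0.42 ± 0.13 (SE, n = 3 per group) missed the threshold with a limma adjusted p of 0.0768. The difference was called at -0.36 without AMPK KO 2 (limma adjusted p = 0.0484) and at -0.49 when libraries were scaled to the reads outside Rn45s (adjusted p = 0.0444). Bcl2l1, whose long product Bcl-xL is induced on T cell activation, read 3.92, 3.98 and 4.29 in WT and 4.27, 4.46 and 4.35 in AMPK KO libraries. WT 3 lay within the AMPK KO range. The difference was 0.30 ± 0.25 (SE, n = 3 per group, limma adjusted p = 0.522), with a 95% interval from -0.23 to 0.83. A 3′ count does not separate the long, protective form from the short, pro-death form of Bcl2l1.

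Bcl2 levels and those of T cell markers both stood lower in AMPK KO libraries, but not in the same order. AMPK KO 2 had the highest T cell marker sum of its group, 2974 CPM, and the lowest Bcl2 level, 6.74. For Mcl1, which neutrophils also depend on, the neutrophil markers are given beside it. Of 11 tested, 2 fell, and the 13 listed summed to 803 to 919 CPM in WT and 532 to 770 CPM in AMPK KO libraries. AMPK KO 2 had the highest neutrophil sum of its group and the lowest Mcl1 level, 8.53. The part of these markers in the results was not tested.

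The start of Bcl2 lies on the minus strand at the upper end of the gene, which spans chr1:106538178-106714274 of GRCm38. The 250 bases before the RefSeq start (chr1:106714291-106714540, minus strand, GRCm38.p6) are shown because Bcl2 was the 1 member that fell. Capitals mark a cyclic AMP response element half-site.
Bcl2: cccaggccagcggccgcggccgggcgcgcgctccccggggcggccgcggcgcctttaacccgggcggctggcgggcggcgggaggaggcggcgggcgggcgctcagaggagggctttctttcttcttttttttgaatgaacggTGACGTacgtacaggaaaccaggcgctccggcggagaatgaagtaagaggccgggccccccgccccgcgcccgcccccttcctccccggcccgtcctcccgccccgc
The letters TGACGT, searched on both strands, were present in 6.47% of the 32851 RefSeq windows of 250 bases. The same stretch of Bcl2 held 7 matches to the GC box GGGCGG on either strand, left in lower case, and 32.7% of windows held at least 1. A match describes the sequence only.

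The A1 genes were the members of the pro-survival side that rose. Bcl2a1b read 5.61, 6.32 and 5.66 in WT and 6.70, 6.49 and 6.61 in AMPK KO libraries. WT 2 was the highest WT library and still lay below the lowest AMPK KO library. The difference was 0.74 ± 0.20 (SE, n = 3 per group, limma adjusted p = 0.0412). Bcl2a1d read 5.26, 5.87 and 5.44 in WT and 6.16, 6.27 and 6.31 in AMPK KO libraries, again with WT 2 highest in its group and no overlap. Its difference was 0.72 ± 0.19 (SE, n = 3 per group, limma adjusted p = 0.0371).

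Both A1 calls were lost when some single libraries were left out, with differences of 0.61 to 0.73 for Bcl2a1b and 0.59 to 0.77 for Bcl2a1d. For Bcl2a1b the limma adjusted p was 0.207 without WT 1, 0.196 without WT 3, 0.178 without AMPK KO 1 and 0.0678 without AMPK KO 3. For Bcl2a1d it was 0.181, 0.16, 0.115 and 0.0822 without the same libraries. Scaling to the reads outside Rn45s left differences of 0.67 and 0.65 with adjusted p of 0.0682 and 0.0577.

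Mouse A1 is a small cluster of near-identical genes, and short reads can be hard to place among them. The annotated transcripts of Bcl2a1b (817 bases) and Bcl2a1d (863 bases) were identical at 99.1% of aligned bases, and 87.8% of the 50-base words in the last 500 bases of Bcl2a1d occurred in another copy. How the reads were shared among copies is not given in the sources used here, so the split between copies is uncertain. The sum over the copies does not depend on that split. Bcl2a1a, Bcl2a1b and Bcl2a1d together, with Bcl2a1c listed at 0 in all 6 libraries, read 6.64, 7.28 and 6.72 in WT and 7.66, 7.59 and 7.74 in AMPK KO libraries. The sum rose by 0.79 ± 0.17 (SE, n = 3 per group, limma adjusted p = 0.0175), with a 95% interval from 0.42 to 1.16. The sum was fitted in the main setting only, with no refit without single libraries. Bcl2a1a, which is no member, rose by 1.02 ± 0.25 (SE, n = 3 per group, limma adjusted p = 0.0307). This call was lost without WT 1, WT 3, AMPK KO 1 or AMPK KO 3, with adjusted p from 0.0983 to 0.137. Bcl2a1b exceeded Bcl2a1d by 0.34 ± 0.12 in WT libraries and by 0.35 ± 0.17 in those of AMPK KO cells (SD, n = 3 each).

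The sequences before both A1 genes are shown because both were called higher. How far reads shared between the copies make their levels alike was not tested. Bcl2a1b lies at chr9:89199209-89207827 on the plus strand and Bcl2a1d at chr9:88723285-88731914 on the minus strand of GRCm38. The lines give the 186 bases next to the annotated start of each gene that its RefSeq window holds, at chr9:89199023-89199208 (plus strand) and chr9:88731915-88732100 (minus strand). Capitals mark matches to the AP-1 motif TGANTCA and to GAGGAAGT, a motif of ETS factors of the PU.1 kind.
Bcl2a1b: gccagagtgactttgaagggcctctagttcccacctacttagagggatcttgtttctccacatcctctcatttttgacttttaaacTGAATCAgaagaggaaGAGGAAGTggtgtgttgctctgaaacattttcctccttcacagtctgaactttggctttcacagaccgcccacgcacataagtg
Bcl2a1d: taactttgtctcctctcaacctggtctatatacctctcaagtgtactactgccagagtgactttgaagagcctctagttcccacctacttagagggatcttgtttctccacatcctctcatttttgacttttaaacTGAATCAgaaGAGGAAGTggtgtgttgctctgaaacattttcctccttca
The stretches aligned over 136 bases with 1 mismatch and 6 bases present in Bcl2a1b only, next to the ETS match. Both genes, and Bcl2a1a, held the AP-1 and the ETS motif in their windows. Of all 32851 windows 6.75% held TGANTCA and 2.44% held GAGGAAGT on either strand. The letters of the NF-kB consensus, present in 7.25% of windows, were not in the windows of the A1 genes.

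**Figure D2:**
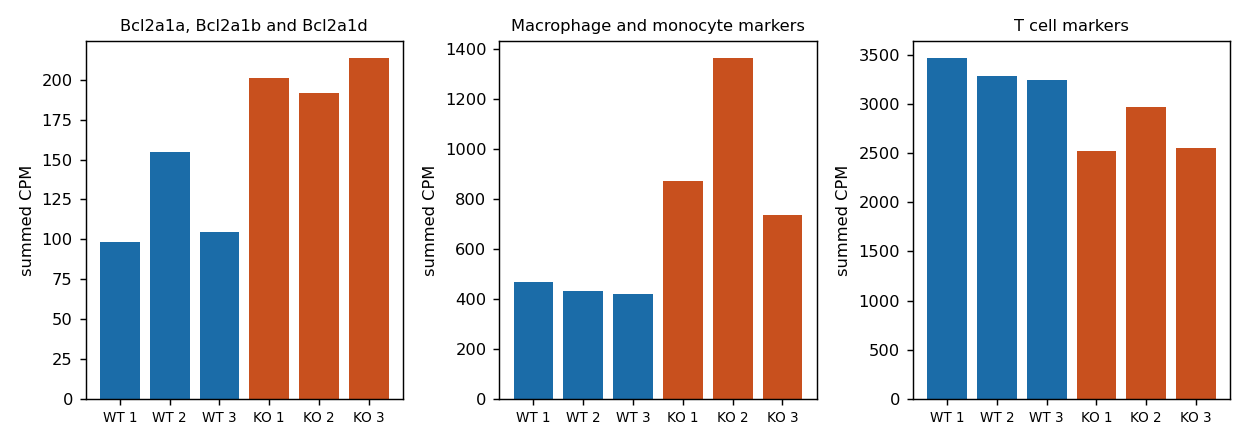
Summed CPM per library of the A1 genes Bcl2a1a, Bcl2a1b and Bcl2a1d (left), of the macrophage and monocyte markers (middle) and of the T cell markers (right), as bars from 0. The A1 sum ranges from 98.4 to 155 CPM in WT and from 192 to 213 CPM in AMPK KO libraries, and AMPK KO 2 has the lowest A1 sum but the highest macrophage sum of its group.

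A1 is made by macrophages and other myeloid cells as well as by activated lymphocytes. The macrophage and monocyte markers therefore stand beside it in the plot of A1 and marker sums. All 12 were tested, and Csf1r, Cd68, C1qa, C1qb, C1qc and Cd14 rose, with a median difference of 1.06 over the list and 0.015 over all genes tested. The orders within a group differed. Among AMPK KO libraries AMPK KO 2 had the highest macrophage sum, 1364 CPM, and the lowest A1 sum, 192 CPM. Among WT libraries WT 2 had the highest A1 sum, 155 CPM, while its macrophage sum of 433 CPM lay between those of the other two. Of the 8 dendritic cell markers none was called by limma, with 2 at an unadjusted p below 0.05. The means of 6 of the 8 were higher in AMPK KO libraries, with a median difference of 0.60. Their sum was 772 to 1060 CPM in WT and 452 to 791 CPM in AMPK KO libraries, and most of it was Ccr7, a homing receptor that T cells also express and that was singled out after its values were seen. Ccr7 read 9.52 to 9.996 in WT and 8.56 to 9.53 in AMPK KO libraries. Of the 9 B cell markers tested none was called, with 1 at an unadjusted p below 0.05, and the sums of all 10 listed, 295 to 325 and 291 to 350 CPM, overlapped. The part of these cells in the A1 levels, after the isolation of CD4 T cells, was not tested.

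Bax and Bak1, the pore formers, did not pass the test. Bax read 3.19, 2.70 and 3.0 in WT and 2.92, 3.43 and 3.17 in AMPK KO libraries, from 55 to 105 reads each. The groups overlapped, and the difference of 0.21 ± 0.33 (SE, n = 3 per group, limma adjusted p = 0.765) had a 95% interval from -0.50 to 0.91. Bak1 read 4.36, 3.92 and 4.60 in WT and 4.28, 4.30 and 3.91 in AMPK KO libraries, a difference of -0.13 ± 0.27 (SE, n = 3 per group, limma adjusted p = 0.824). AMPK KO 3 and WT 2 were the low libraries of their groups and lay side by side. Ggnbp1, which is also listed, runs on the opposite strand across the last 500 bases of Bak1, and whether counting used strand is not given in the sources used here. The sign of both differences depended on the setting, with Bax at -0.052 without WT 2 and AMPK KO 2 together and Bak1 at 0.025 without WT 3.

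Pmaip1 was the BH3-only gene that rose. Its product Noxa binds Mcl1 and A1 and promotes the breakdown of Mcl1. Pmaip1 read 4.66, 5.26 and 5.02 in WT and 5.73, 5.98 and 5.77 in AMPK KO libraries. The lowest AMPK KO library lay above the highest WT library, WT 2. The difference was 0.85 ± 0.20 (SE, n = 3 per group, limma adjusted p = 0.0273), which is 180% of the WT level on this scale, with a 95% interval from 0.41 to 1.28. The limma adjusted p was 0.144 without WT 1, 0.105 without WT 3 and 0.0961 without AMPK KO 1, each with the same direction.

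Bcl2l11 and Bbc3, which encode the broad BH3-only proteins Bim and Puma, had lower means in AMPK KO libraries without passing the test. Bcl2l11 read 7.70, 7.58 and 7.71 in WT and 7.34, 7.14 and 7.49 in AMPK KO libraries. The groups did not overlap, and the difference of -0.34 ± 0.14 (SE, n = 3 per group, 95% interval -0.65 to -0.03) had a limma adjusted p of 0.189. Bbc3 read 5.66, 5.38 and 5.23 in WT and 4.59, 5.07 and 5.22 in AMPK KO libraries. AMPK KO 3 came just below WT 3, and the difference of -0.47 ± 0.22 (SE, n = 3 per group) had a limma adjusted p of 0.241. Without AMPK KO 1, the lowest library, it was -0.28. The FOXO motif TGTTTAC matched in 1 of the 2 windows of Bcl2l11 and in 1 of the 3 windows of Bbc3, and in 3.17% of all windows taken singly, on either strand. The NF-kB consensus matched at overlapping places in another window of Bbc3, in 1 of the 3 windows of Bcl2l1 and in no window of Bcl2l11.

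**Figure D3:**
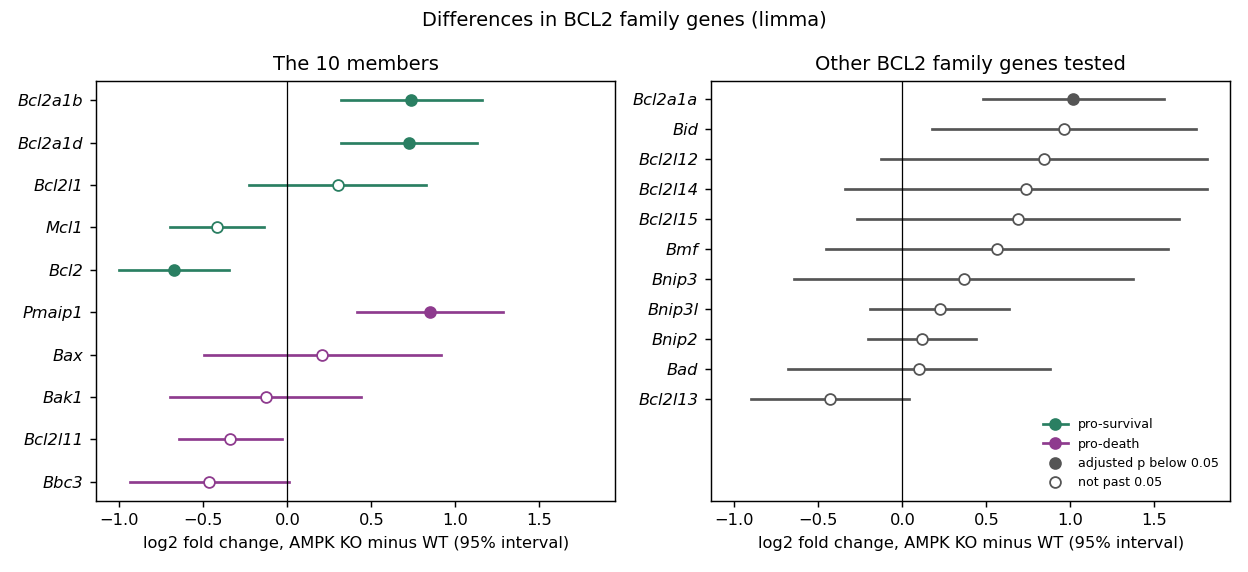
Log2 fold change (AMPK KO minus WT) with its 95% interval from limma for the 10 members, ordered within each side (left), and for the other BCL2 family genes that passed the filter on low values (right). Filled points passed an adjusted p of 0.05: Bcl2a1b, Bcl2a1d, Bcl2 and Pmaip1 among members and Bcl2a1a among the others.

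On the log2 scale, the sides set against each other did not separate. The median difference was 0.30 over the 5 pro-survival members (range -0.67 to 0.74) and -0.13 over the 5 pro-death members (range -0.47 to 0.85), beside 0.015 over all genes tested. These medians are the differences of Bcl2l1 and Bak1, neither of which was called. The mean level of the pro-survival genes exceeded that of the pro-death genes by 1.18, 1.59 and 1.33 in WT and by 1.63, 1.31 and 1.49 in AMPK KO libraries, and the groups overlapped. The most abundant genes weigh most on the linear scale. There the pro-survival sum was 825 to 873 CPM in WT and 661 to 749 CPM in AMPK KO libraries, without overlap. The pro-death sum was 288 to 308 CPM in WT and 261 to 290 CPM in AMPK KO libraries, which overlapped. The makeup of the pro-survival side moved. Bcl2a1b and Bcl2a1d together held 10.3 to 15.7% of its CPM in WT and 23.2 to 24.9% in AMPK KO libraries.

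Pairs of members were then compared within each library. These pairs were chosen after the values were seen and carry no test. Bcl2l11 and Bcl2 lay at almost the same level in WT, 0.06, 0.003 and 0.008 apart, and Bcl2l11 exceeded Bcl2 by 0.14, 0.41 and 0.53 in AMPK KO libraries. Pmaip1 stood below Mcl1 by 4.39, 3.79 and 4.10 in WT and by 2.96, 2.55 and 2.98 in AMPK KO libraries. Both of these pairs separated the groups without overlap. Pmaip1 minus Bcl2a1b averaged -0.88 ± 0.22 in WT libraries and -0.77 ± 0.24 in those of AMPK KO cells (SD, n = 3 each), and these overlapped. Bcl2l11 minus Mcl1 also overlapped, at -1.41 ± 0.06 and -1.33 ± 0.07 (SD, n = 3). The pair within the pro-survival side moved furthest. Bcl2a1b stood below Bcl2 by 2.03, 1.26 and 2.04 in WT and by 0.50, 0.25 and 0.35 in AMPK KO libraries. Reads lie at 3′ ends, so gene length does not scale these differences, but capture at each 3′ end may differ, and the change between groups is the quantity to read.

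**Figure D4:**
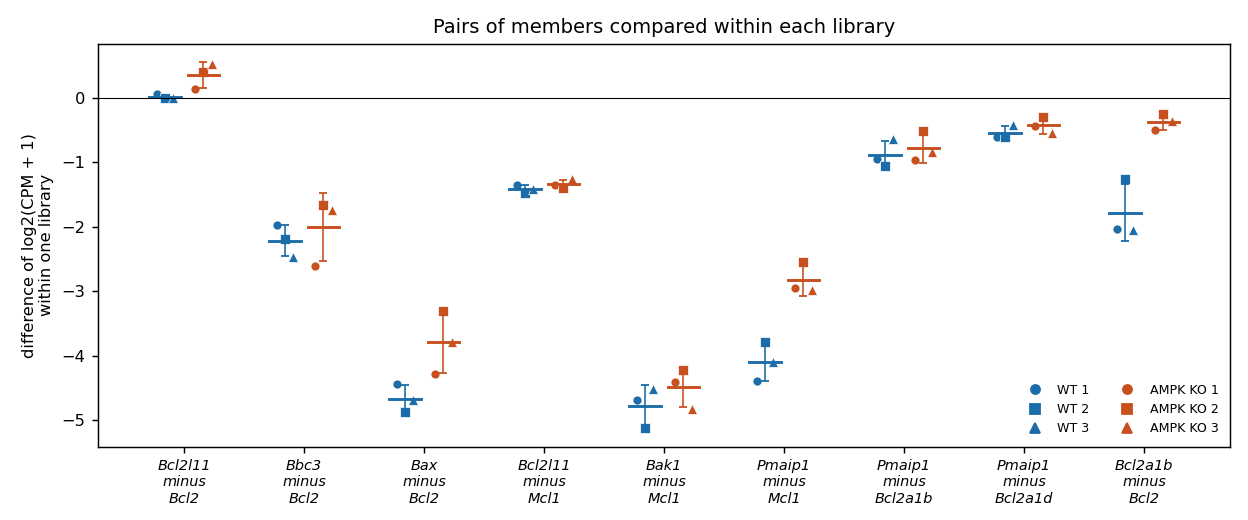
Difference of the log2(CPM + 1) levels of 2 members within each library, with lines at the group mean and bars of 1 SD. Bcl2l11 minus Bcl2, Bax minus Bcl2, Pmaip1 minus Mcl1 and Bcl2a1b minus Bcl2 are higher in all 3 AMPK KO libraries than in any WT library, and the other pairs overlap.

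Among the other 17 BCL2 family genes 11 passed the filter on low values, and Bcl2a1a was the 1 that was called. The median difference of the 11 was 0.56, and 10 of them had a higher mean in AMPK KO libraries. Bid, a BH3-only protein cut by caspase 8, read 2.53, 2.43 and 2.24 in WT and 3.58, 2.72 and 3.79 in AMPK KO libraries, without overlap and with an unadjusted limma p of 0.0198 that did not pass after adjustment. It was named after its values were seen. The remaining 6 genes, Bcl2l2, Bcl2l10, Bcl2a1c, Bok, Bik and Hrk, lay below the filter. Bcl2l10 and Bcl2a1c were listed at 0 in every library.

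Downstream of the mitochondria, 20 genes of the apoptosome, the caspases and their inhibitors were tested, and 1 was called. Birc6, a large inhibitor of apoptosis protein, fell by 0.59 ± 0.13 (SE, n = 3 per group, limma adjusted p = 0.02). The call was lost without WT 1, WT 3 or AMPK KO 1, with adjusted p of 0.108, 0.108 and 0.0881. In limma voom Birc6 stayed called with the deposited scaling (adjusted p = 0.0221) and was not called with scaling to total reads (-0.45, adjusted p = 0.0705). None of the caspases was called. Of 12 genes of the death receptor route limma called none, while 1 had an unadjusted p below 0.05. That gene was Tnfrsf1b, the second receptor for tumour necrosis factor, with a difference of 0.66 ± 0.19 (SE, n = 3 per group, limma adjusted p = 0.0514). It was called without WT 2 (adjusted p = 0.0311) and without AMPK KO 2 (adjusted p = 0.00221). Without WT 1, WT 3, AMPK KO 1 or AMPK KO 3 the adjusted p was 0.169, 0.267, 0.187 and 0.138, with differences down to 0.49. Ripk1, a kinase of the same list, had the next smallest p, with a difference of -0.38 ± 0.18 (SE, n = 3 per group, limma adjusted p = 0.244).

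Bbc3, Pmaip1 and Bax are textbook targets of p53, and 14 other genes of that pathway were tested beside them. Of these 1 was called. Btg2, an antiproliferative gene, read 8.62 to 8.81 in WT and 8.08 to 8.17 in AMPK KO libraries and fell by 0.62 ± 0.13 (SE, n = 3 per group, limma adjusted p = 0.0143). Its call was lost without WT 1, WT 3 or AMPK KO 1, with adjusted p of 0.0986, 0.0655 and 0.0912. It was also lost without a filter on low values (adjusted p = 0.0727) and in limma voom with scaling to total reads (-0.48, adjusted p = 0.0538), but not with the deposited scaling (adjusted p = 0.0149). Cdkn1a, the p53 target that stops the cell cycle, read 5.05, 4.86 and 4.72 in WT and 5.14, 5.84 and 4.75 in AMPK KO libraries and was not called. It is named for that role, after its values were seen. The median of the 14 was -0.10.

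Of 18 transcription factors known to act on BCL2 family genes, Rel was called. Rel encodes c-Rel, the NF-kB subunit that drives A1 and Bcl-xL in activated lymphocytes. It read 7.08, 6.61 and 6.99 in WT and 6.14, 6.03 and 5.93 in AMPK KO libraries, without overlap, and fell by 0.86 ± 0.17 (SE, n = 3 per group, limma adjusted p = 0.00951). Without WT 1 or WT 3 the adjusted p was 0.0854 and 0.0792. The A1 genes stood on the other side, higher in AMPK KO libraries. Atf4, the stress factor that acts on Pmaip1, had a difference of 0.54 ± 0.16 (SE, n = 3 per group, limma adjusted p = 0.0574), which was not called, and Foxo1, which acts on Bcl2l11, differed by -0.17 ± 0.13 (SE, n = 3 per group) and was not called. Atf4 and Foxo1 are named for those roles, after their values were seen.

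Survival cytokine signals set Bcl2 in T cells, and 3 of the 10 genes tested on this route were called. Il7r, the receptor chain for interleukin 7, read 9.52, 9.24 and 9.36 in WT and 8.69, 8.75 and 8.65 in AMPK KO libraries. It fell by 0.68 ± 0.13 (SE, n = 3 per group, limma adjusted p = 0.00976). Jak1, the kinase that this receptor and the interleukin 2 receptor share, fell by 0.58 ± 0.15 (SE, n = 3 per group, limma adjusted p = 0.0383), from 10.76 to 11.03 in WT to 10.23 to 10.57 in AMPK KO libraries. Il2rb, the beta chain of the receptors for interleukin 2 and 15, rose by 0.67 ± 0.14 (SE, n = 3 per group, limma adjusted p = 0.0126), from 7.51 to 7.72 in WT to 8.18 to 8.43 in AMPK KO libraries. All 3 calls were lost without WT 1, WT 3 or AMPK KO 1, with adjusted p from 0.0675 to 0.0901 for Il7r, from 0.0513 to 0.0978 for Il2rb and from 0.186 to 0.196 for Jak1, and Jak1 also without AMPK KO 3 at 0.116. In limma voom Jak1 stood at -0.44 with scaling to total reads (adjusted p = 0.0624) and at -0.59 with the deposited scaling (adjusted p = 0.0279). Il2rb is also carried by CD8 T cells and natural killer cells, whose 9 listed markers summed to 328 to 424 CPM in WT and 481 to 562 CPM in AMPK KO libraries, with 1 of 8 tested called higher. The part of these cells, after the isolation of CD4 T cells, was not tested.

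**Figure D5:**
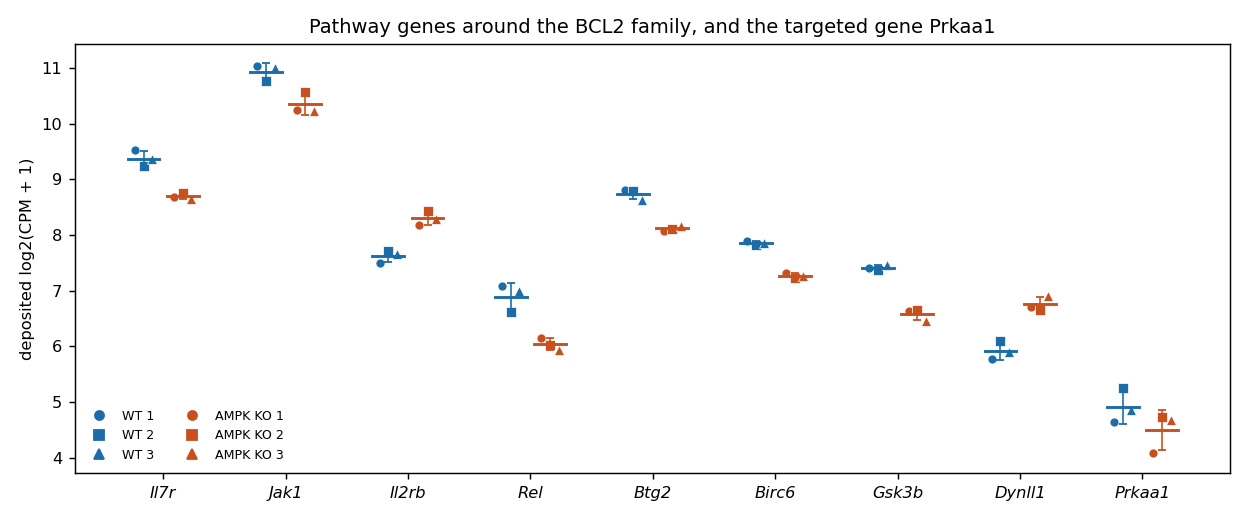
Deposited log2(CPM + 1) level per library of 8 pathway genes that passed an adjusted p of 0.05 and of the targeted gene Prkaa1, with lines at the group mean and bars of 1 SD. Il7r, Jak1, Rel, Btg2, Birc6 and Gsk3b lie lower and Il2rb and Dynll1 higher in all 3 AMPK KO libraries, and the groups overlap for Prkaa1.

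Of 20 tested genes whose proteins act on BCL2 family members, 1 rose and 1 fell. Dynll1, the dynein light chain that holds Bim on microtubules, read 5.77, 6.10 and 5.90 in WT and 6.71, 6.66 and 6.90 in AMPK KO libraries and rose by 0.83 ± 0.16 (SE, n = 3 per group, limma adjusted p = 0.00928). Its adjusted p was 0.0757 without WT 1, 0.068 without WT 3 and 0.055 without AMPK KO 1. Gsk3b, the kinase that marks Mcl1 for breakdown, read 7.42, 7.37 and 7.46 in WT and 6.63, 6.65 and 6.46 in AMPK KO libraries and fell by 0.83 ± 0.14 (SE, n = 3 per group, limma adjusted p = 0.00432). It stayed called without each library in turn, with adjusted p up to 0.0478.

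Genes of early T cell activation give the state in which the members were read. Of 14 tested, 2 rose and 3 fell. Tnfrsf9, which encodes the costimulatory receptor 4-1BB, rose by 0.72 ± 0.17 (SE, n = 3 per group, limma adjusted p = 0.0245), and Fosb, an AP-1 subunit, by 0.70 ± 0.15 (SE, n = 3 per group, limma adjusted p = 0.0159). Egr3 fell by 1.34 ± 0.18 (SE, n = 3 per group, limma adjusted p = 0.000719) and Egr1 by 0.76 ± 0.14 (SE, n = 3 per group, limma adjusted p = 0.00592). Both encode zinc finger factors induced by the T cell receptor. Cd40lg, the helper ligand of activated CD4 T cells, fell by 1.76 ± 0.29 (SE, n = 3 per group, limma adjusted p = 0.00296). Without WT 1 the calls of Tnfrsf9, Egr1 and Cd40lg were lost, with adjusted p of 0.128, 0.0656 and 0.052. Those of Tnfrsf9 and Fosb were lost without WT 3, at 0.103 and 0.115, and without AMPK KO 1, at 0.0802 and 0.101. The gene for interleukin 2 lay below the filter in these libraries. Of the AMPK subunit genes 5 were tested and limma called none, with none at an unadjusted p below 0.05. Prkab2, a regulatory subunit, had the smallest p after Prkaa1, with a difference of 0.36 ± 0.32 (SE, n = 3 per group, limma adjusted p = 0.557) that ranged from 0.094 without WT 2 to 0.63 without WT 1.

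The member with the smallest p was Bcl2, and the genes whose levels followed it most closely over the 6 libraries were sought among the 5639 tested genes above the median level. They were Bdp1 (Pearson r = 0.997), Ino80d (0.991), Prpf4b (0.989), Rbm33 (0.989) and Uspl1 (0.988). All 5 had a lower mean in AMPK KO libraries, from -0.32 for Bdp1 to -0.83 for Uspl1. The 6 points share 2 groups and the same scaling, and the values are given as a description.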

How the data were processed

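RNA from 6 cultures was made into 3′ libraries with the Lexogen QuantSeq kit from 500 ng of total RNA. The submitters' processing notes name Bowtie2, bedtools and mm10, with no versions. Per the study's methods and the values, the authors deposited log2 values of TMM-normalised CPM plus 1. No other per-sample unit was used. The values fell on whole reads in each library (100% within 0.1 of a whole read, up to 100 reads), which gave reads per gene and depth. Depth limits precision for members with few reads. Groups were taken from the sample titles. Of 23282 lines, 79 carried 1 of 35 repeated symbols. Genes with a mean log2 of at least 1 over 6 samples (11279) were fitted on genotype alone with limma 3.58.1 in R 4.3.3 (trended empirical Bayes, two-sided) after testing on simulated data, with p-values adjusted by Benjamini-Hochberg. Intervals are 95%. Members and gene lists were chosen with earlier results of these data known. Genes were named if they were members, Prkaa1, or pathway list genes called at an adjusted p of 0.05 (otherwise the 2 with the smallest p), plus the 5 genes most like the member of smallest p. Any other gene was named after its values were seen. Marker sums cover all listed genes of a list. Alternatives covered filters, scaling, pseudocount, left-out libraries, replicate numbers, library division, GC content and limma voom. Positions are from GENCODE M21 and windows from RefSeq (GRCm38), which held 14 windows for 9 of the 10 members. Pmaip1 had no entry.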

Additional observations from a re-analysis of the deposited data

How the results depend on the processing

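Every called member kept its direction under all alternatives tried, but the count of calls did not hold. The 4 members called became 0 without a filter on low values (6 at an unadjusted p below 0.05 in limma) and 0 with the replicate block (5 at an unadjusted p below 0.05). Leaving out a library gave 0 to 5 members called, with 0 without WT 1 (5 at an unadjusted p below 0.05) and without WT 3 (6 at an unadjusted p below 0.05), 1 without AMPK KO 1 and 2 without AMPK KO 3. The 637 genes called became 39 without the filter, 102 with the replicate block, 1428 with a term for the library division, 2380 without WT 2 and AMPK KO 2 together, and 127 to 1243 when each library was left out. With 2 replicates in a group the spread was pooled over both groups. The division term was planned for the counts of calls and extended to single genes and medians after the data were seen. Limma voom, the GC correction and the joint removal of WT 2 and AMPK KO 2 were added after the data were seen, and the cause of these shifts was not tested.

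The median difference of the pro-survival members was 0.46 in limma voom with scaling to total reads and 0.23 to 0.41 when each library was left out. That of the pro-death members was 0.013 in that fit, -0.0012 with the division term, -0.29 without WT 2 and AMPK KO 2 together, and -0.32 to 0.025 when each library was left out. That fit moved the median of all genes by 0.15, and with the deposited scaling limma voom gave medians of 0.32 and -0.13, Bak1 at -0.13 and the same 4 members called. Bak1 turned to 0.013 in limma voom with scaling to total reads and to 0.025 without WT 3, and Bax to -0.052 without WT 2 and AMPK KO 2 together. Mcl1 was also called with the division term, the GC correction and without WT 2 and AMPK KO 2 together (adjusted p = 0.00793, 0.0309 and 0.0088). The division was taken from these same data. Genes called over all tested also rose, from 637 to 1428 with the division term and to 2380 without WT 2 and AMPK KO 2 together. Among the 18 called genes (members, Bcl2a1a and pathway genes) refitted under every setting, Birc6 and Gsk3b kept the call without a filter on low values (adjusted p = 0.033 and 0.0426), Egr3 and Cd40lg kept it with the replicate block (adjusted p = 0.0204 and 0.0125), and the others of the 18 lost it in each of these settings. Scaling to the reads outside Rn45s moved the median of all genes by -0.066.

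Same-numbered libraries of the 2 groups did not deviate together (correlations of deviations -0.082, -0.32 and -0.16). With 3 libraries per group such values cannot exclude a pairing by replicate number. The median squared difference between replicates was 9.69 to 24.3 times that given by read counting alone. edgeR and DESeq2 were planned on recovered reads but not run, and limma voom on those reads took their place.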

Other observations

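Jchain, the joining chain of secreted antibodies, read 5.84, 6.01 and 5.87 in WT and 8.54, 8.62 and 8.36 in AMPK KO libraries, and rose by 2.60 ± 0.14 (SE, n = 3 per group, limma adjusted p = 5.77e-08). It was the 1 plasma cell marker called of 5 tested, and the 6 listed summed to 91.4 to 100.4 CPM in WT and 383 to 461 CPM in AMPK KO libraries. Among the T cell markers Cd3g fell by 0.93, Cd3e by 0.66 and Cd28 by 0.56, while Cd3d (-0.31) and Lck (-0.17) were not called. These markers are named after their values were seen.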
